A study of Mus musculus with 9 samples.

Results

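The 10 genes described here set the pace at which a cell leaves G1 and enters S phase: the D cyclins Ccnd1, Ccnd2 and Ccnd3, the kinases Cdk4 and Cdk6, the kinase inhibitors Cdkn1b, Cdkn1c and Cdkn2c, and the transcription factors Mycn and Myc. They were chosen by symbol, with earlier results of these data known. All 10 are among the 21356 named genes of the table and among the 14029 genes that passed the filter on low values. RNA was measured in dissected midbrain of mouse fetuses on a C57BL/6 background at E13.5, with 3 fetuses in each of 3 genotypes. The floxed control was Gpr161 f/f without Cre. The Cre control was Gpr161 f/+;Wnt1-Cre, with 1 floxed and 1 wild-type allele. The cKO was Gpr161 f/f;Wnt1-Cre. All fetuses carry at least 1 floxed allele. Wnt1-Cre recombines in the dorsal midbrain and in the neural crest, so other cells of the dissected tissue keep Gpr161, and the transgene line is known to raise Wnt1 itself. The Cre control differs from the floxed control both in the transgene and in 1 Gpr161 allele, and these cannot be told apart here. In bulk tissue, fewer cells of a type and less RNA per cell cannot be told apart either.

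D cyclins bind Cdk4 or Cdk6, and the active kinase phosphorylates the Rb proteins, which frees E2F factors to switch on genes for DNA replication. Cdkn2c (p18) blocks Cdk4 and Cdk6, while Cdkn1b (p27) and Cdkn1c (p57) act on Cdk complexes more widely and are linked to cell cycle exit. Shh signaling, which Gpr161 restrains, is known to act through Ccnd1, Ccnd2 and Mycn in neural precursors, and Ccnd1 and Myc are classical targets of Wnt signaling.

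Promoter windows were taken from RefSeq for 6 of the 10 genes (not Ccnd1, Ccnd2, Cdkn1c or Myc), as the 250 bases before each annotated start in GRCm38.p6. Those of Cdk4 and Cdk6 are shown because Cdk4 rose in the cKO and Cdk6 did not pass the test, that of Mycn because it passed in no comparison, and that of Ccnd3 as the 1 D cyclin with a window (the upstream one of its 2). Capitals mark matches, on either strand, to the E-box bound by Myc (CACGTG), to E2F motifs (TTTCCCGC, TTTCGCGC, TTTGCCGC or TTTGGCGC) and to TCF/LEF motifs (CTTTGAA or CTTTGAT).
Cdk4, chr10:127063285-127063534, plus strand: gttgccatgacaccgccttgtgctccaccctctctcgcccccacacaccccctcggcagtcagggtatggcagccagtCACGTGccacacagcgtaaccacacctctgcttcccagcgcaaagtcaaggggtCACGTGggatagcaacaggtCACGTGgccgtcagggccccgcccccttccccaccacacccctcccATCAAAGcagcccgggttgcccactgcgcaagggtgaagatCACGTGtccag
Cdk6, chr5:3343643-3343892, plus strand: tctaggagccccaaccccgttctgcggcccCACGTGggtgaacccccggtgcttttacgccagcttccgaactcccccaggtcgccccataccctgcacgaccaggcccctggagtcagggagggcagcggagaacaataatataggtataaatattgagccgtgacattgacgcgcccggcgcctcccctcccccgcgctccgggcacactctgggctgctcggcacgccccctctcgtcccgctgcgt
Mycn, chr12:12941837-12942086, minus strand: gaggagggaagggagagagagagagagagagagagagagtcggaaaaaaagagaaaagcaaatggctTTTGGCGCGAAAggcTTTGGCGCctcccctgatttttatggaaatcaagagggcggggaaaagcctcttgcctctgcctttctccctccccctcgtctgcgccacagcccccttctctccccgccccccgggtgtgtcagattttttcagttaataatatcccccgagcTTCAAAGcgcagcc
Ccnd3, chr17:47504801-47505050, plus strand: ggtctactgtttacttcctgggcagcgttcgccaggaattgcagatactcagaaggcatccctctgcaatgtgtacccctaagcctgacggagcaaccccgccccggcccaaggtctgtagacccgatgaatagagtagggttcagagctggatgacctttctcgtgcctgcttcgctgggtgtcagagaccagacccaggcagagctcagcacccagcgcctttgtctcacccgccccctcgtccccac
The Cdk4 window holds 4 E-boxes and 1 TCF/LEF match, and the Cdk6 window holds 1 E-box. An E-box is found in 6.02% of 32851 such windows. The Mycn window holds 3 E2F matches, of which an overlapping pair shares bases, and 1 TCF/LEF match, while E2F motifs are found in 1.86% and TCF/LEF motifs in 7.48% of all windows. No match was found in the Ccnd3 window. The Gli motif GACCACCCA, found in 0.225% of all windows, was in none of the 8 windows of these genes. These matches are letters in a window and not evidence of binding.

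The values are on a log2 scale, normalized between libraries by the authors, and the number of reads behind them is unknown. Gpr161 had log2 values of 11.80, 11.74 and 11.78 in the floxed control, 11.77, 11.91 and 11.96 in the Cre control, and 11.74, 11.95 and 11.94 in the libraries labelled cKO. It was therefore not lower in the libraries labelled cKO, and the table does not separate its exons. Gli1, a Shh-activated transcription factor, lay between 8.55 and 8.71 in the 6 control libraries and between 9.60 and 9.80 in the cKO. Wnt1 lay between 9.08 and 9.25 in the floxed control, between 10.89 and 11.01 in the Cre control and between 10.57 and 10.80 in the cKO.

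Ccnd2 showed the clearest change of the 10 genes, and it rose in the cKO against both controls. Ccnd2 lies on chromosome 6 of GRCm38 from 127125162 to 127152193, on the minus strand. Its log2 values were 13.97, 13.95 and 13.92 in the floxed control, 14.27, 14.06 and 14.18 in the Cre control, and 14.45, 14.53 and 14.35 in the cKO. The 3 genotypes did not overlap, and the Cre control lay between the other two. Against the floxed control, the cKO was higher by 0.50 ± 0.061 (SE) on the log2 scale, a 1.41-fold difference (95% interval 1.28 to 1.55; limma with Benjamini-Hochberg adjustment over all genes tested, adjusted p = 0.000587). Against the Cre control it was higher by 0.27 ± 0.061 (SE), a 1.21-fold difference (95% interval 1.10 to 1.33; adjusted p = 0.0266 by limma). This second call rested on single libraries, since it was lost when replicate 2 or 3 of the Cre control (adjusted p = 0.0685 and 0.0771) or replicate 1 or 2 of the cKO (0.0982 and 0.0834) was left out, after quantile normalization (0.0557) and in a fit to these 6 libraries alone (0.0723). The difference itself stayed between 0.19 and 0.32 in all alternatives run. From floxed control to Cre control the difference was 0.22 ± 0.061 (SE), which did not pass (adjusted p = 0.166 by limma).

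**Figure D1:**
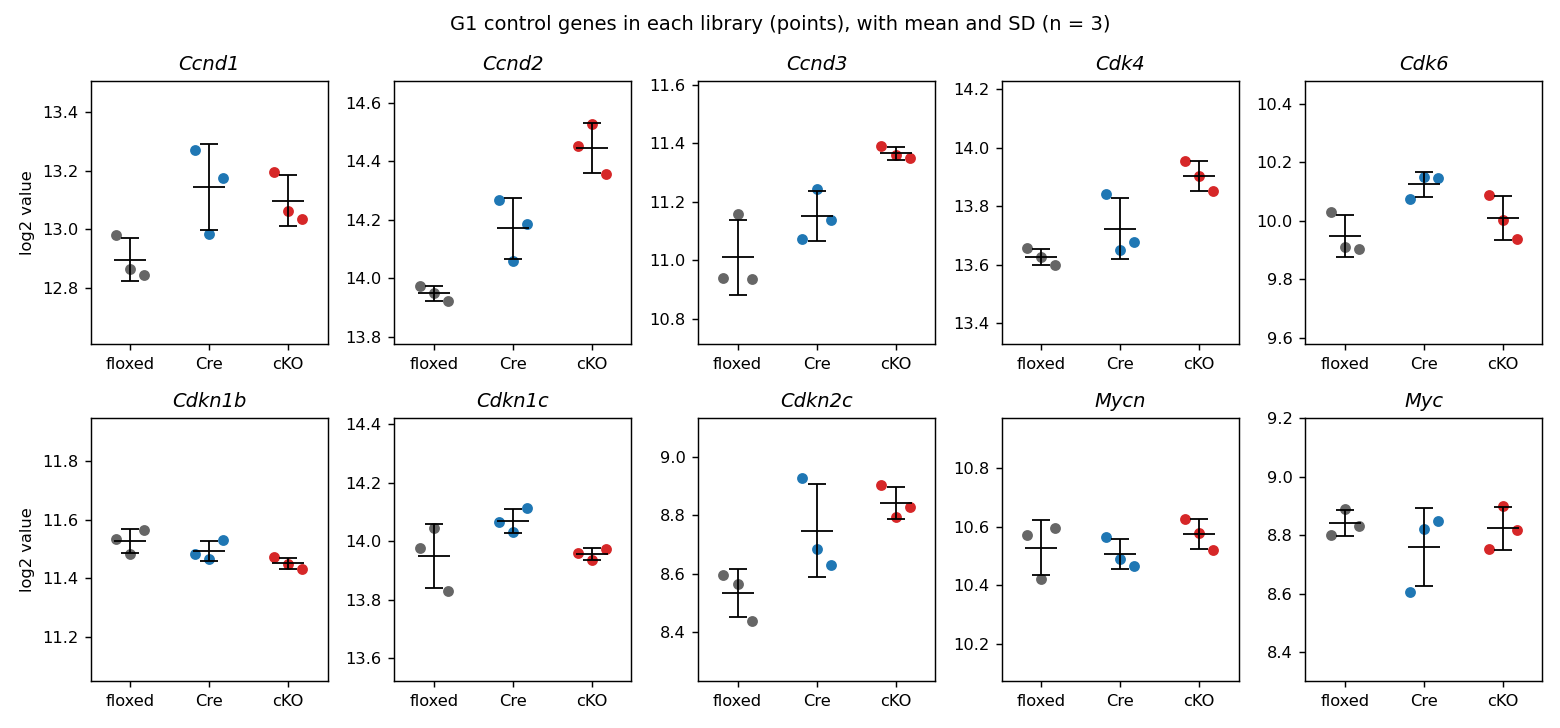
Log2 value (vertical axis) of the 10 genes in each library (points) by genotype, with the mean and SD of 3 libraries in black; every panel spans the same height on the log2 scale. Ccnd2 climbs from 13.95 over 14.17 to 14.44 in the group means without overlap, while Ccnd1 has its highest mean in the Cre control (13.14).

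Ccnd1 showed another order. The gene lies on chromosome 7 from 144929931 to 144939925, on the minus strand. Its log2 values were 12.98, 12.86 and 12.84 in the floxed control, 13.27, 12.98 and 13.18 in the Cre control, and 13.20, 13.06 and 13.04 in the cKO. Both Cre-bearing groups lay above the floxed control, by a narrow margin in Cre control replicate 2, and they overlapped with each other. The Cre control exceeded the floxed control by 0.25 ± 0.075 (SE; limma, unadjusted p = 0.00781, adjusted p = 0.182), and the cKO exceeded it by 0.20 ± 0.075 (SE; adjusted p = 0.0555 by limma). Neither passed the threshold. Between cKO and Cre control the difference was -0.05 with a 95% interval from -0.21 to 0.12 (adjusted p = 0.718 by limma). The comparison of Ccnd1 between cKO and floxed control lies at the threshold. It passed in a fit to those 6 libraries alone (adjusted p = 0.0153), after quantile normalization (0.0497) and without Cre control replicate 1 or 2 (0.0244 and 0.0222). With each library left out in turn, the difference ranged from 0.15 to 0.24 (adjusted p 0.0222 to 0.19 by limma).

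Ccnd3 rose in the cKO against the floxed control. It lies on chromosome 17 from 47505051 to 47599691, on the plus strand. Its log2 values were 10.94, 11.16 and 10.93 in the floxed control, 11.07, 11.24 and 11.14 in the Cre control, and 11.39, 11.36 and 11.35 in the cKO. The cKO libraries lay close together above all others, whereas the controls overlapped. Against floxed controls the cKO was higher by 0.36 ± 0.065 (SE), or 1.28-fold (adjusted p = 0.00266 by limma). Its difference to the Cre control was 0.22 ± 0.065 (SE) and did not pass (adjusted p = 0.0624 by limma). The latter passed without floxed control replicate 2 (adjusted p = 0.0346 by limma), the floxed library with the highest Ccnd3. That library is in neither group of this comparison and acts on it only through the spread shared by the fit. With each library left out in turn, the difference to the Cre control ranged from 0.18 to 0.26 (adjusted p 0.0346 to 0.191 by limma).

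Markers of mesenchyme, such as the collagen genes Col1a2 and Col3a1, moved with Ccnd3. Of 7 such markers, 6 rose in the cKO against the floxed control (Col1a1, with 0.77 and adjusted p = 0.0901 by limma, did not pass), and their summed share of the linear values was 0.104 to 0.191% in the floxed control, 0.134 to 0.222% in the Cre control and 0.222 to 0.233% in the cKO. Floxed control replicate 2 and Cre control replicate 2 were highest within their groups both for these markers and for Ccnd3. The same libraries were also highest within their groups for the summed shares of endothelial, pericyte, microglia and choroid plexus markers. Their endothelial shares, for example, were 0.0269 and 0.0291%. No covariate was fitted for those other markers. With the mean of these markers as a covariate, a choice made once the data had been seen, the difference of Ccnd3 between cKO and floxed control was 0.16 (adjusted p = 0.109 by limma) in place of 0.36, while that of Ccnd2 was 0.56 (adjusted p = 0.0141) in place of 0.50. That of Ccnd1 was 0.30 (adjusted p = 0.0966 by limma) in place of 0.20. Under this covariate the difference of Ccnd2 between cKO and Cre control was 0.30 (adjusted p = 0.0497 by limma). Genotype and marker level are themselves related in these libraries, and the part of the mesenchyme in the Ccnd3 result was not tested further.

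**Figure D2:**
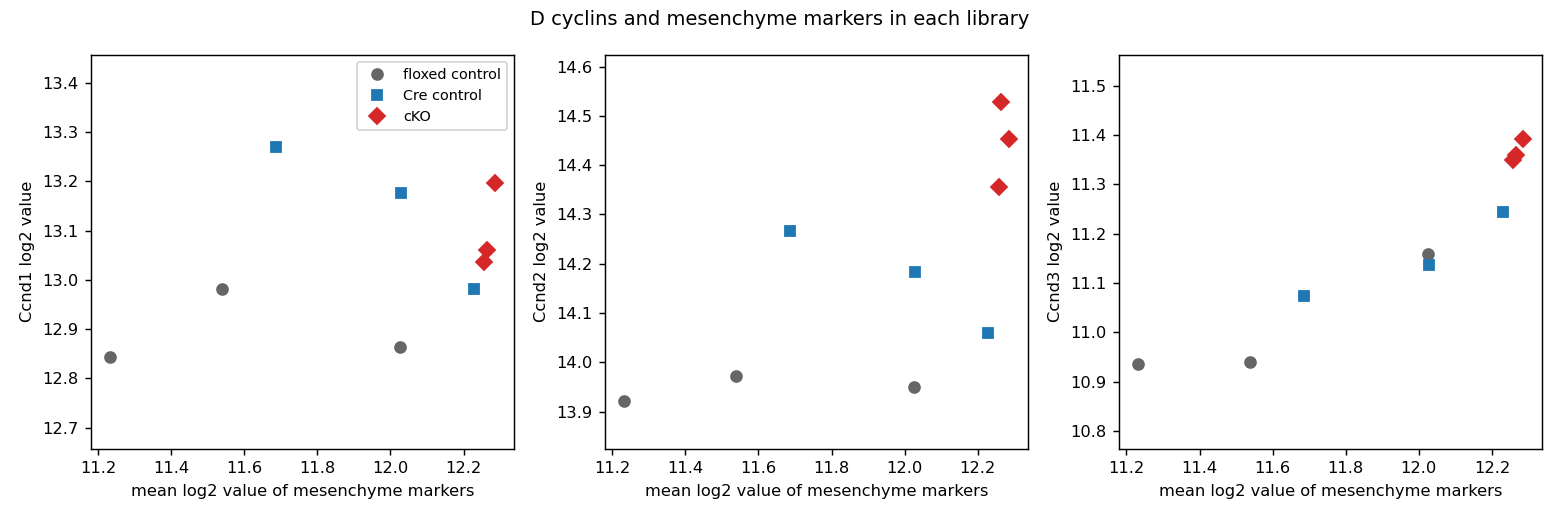
Log2 value of each D cyclin (vertical axes) against the mean log2 value of 7 mesenchyme markers (horizontal axes) in each of 9 libraries, with the genotype shown by color and symbol. The cKO libraries have the highest marker means (12.26 to 12.29), and within each control group Ccnd3 is highest in the library with the highest marker mean, while in the Cre control Ccnd1 and Ccnd2 are lowest in that library.

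Whether the D cyclins moved apart from each other was tested on their differences within each library, which a library-wide shift cannot move. For floxed control, Cre control and cKO in turn, the log2 value of Ccnd1 minus that of Ccnd2 was -1.05 ± 0.052, -1.03 ± 0.044 and -1.35 ± 0.11 (mean ± SD, n = 3). The 2 controls overlapped, and each cKO library (-1.25 to -1.47) lay below each of the 6 control libraries (-1.09 to -0.99). An exact permutation test over 1680 assignments of the libraries gave p = 0.025, and 0.0857 after Benjamini-Hochberg adjustment over 6 such differences, so it did not pass. The smallest p this design allows is 0.00357. Ccnd1 minus Ccnd3 (exact permutation p = 0.221, adjusted p = 0.332) and Ccnd2 minus Ccnd3 (exact permutation p = 0.461, adjusted p = 0.553) varied within genotypes by about as much as between them.

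**Figure D3:**
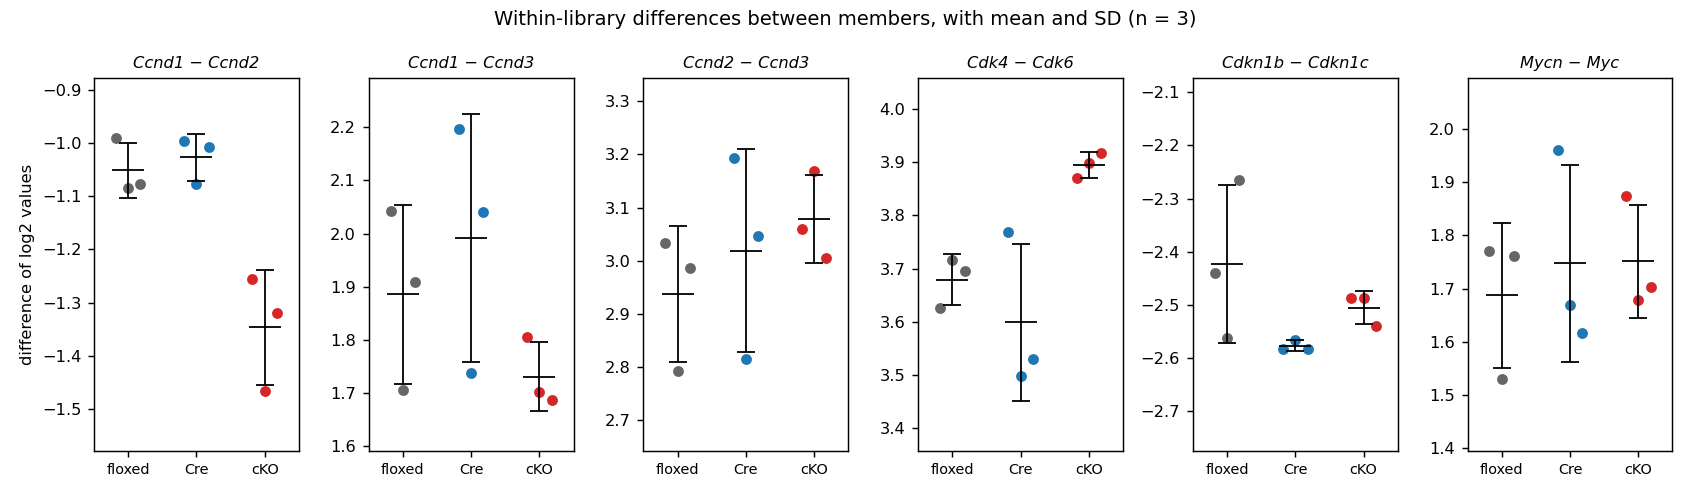
Difference of the log2 values of 2 genes within each library (points) by genotype, with the mean and SD of 3 libraries in black; all panels span the same height. In Ccnd1 minus Ccnd2 and in Cdk4 minus Cdk6 the 3 cKO libraries lie apart from all 6 control libraries, on opposite sides.

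Of the kinases, Cdk4 rose in the cKO against the floxed control, and Cdk6 passed in no comparison. Cdk4, on chromosome 10 from 127063534 to 127067920, had log2 values of 13.66, 13.63 and 13.60 in the floxed control, 13.84, 13.65 and 13.68 in the Cre control, and 13.96, 13.90 and 13.85 in the cKO. All 3 cKO libraries lay above all controls, with Cre control replicate 1 (13.84) just below the lowest of them. The cKO exceeded the floxed control by 0.28 ± 0.055 (SE), or 1.21-fold (adjusted p = 0.00387 by limma). Its difference to the Cre control, 0.18 ± 0.055 (SE), did not pass (adjusted p = 0.0637 by limma). Without Cre control replicate 1, the latter was 0.24 and passed (adjusted p = 0.00414 by limma). With each library left out in turn, it ranged from 0.14 to 0.24 (adjusted p 0.00414 to 0.216 by limma). Cdk6, on chromosome 5 from 3341485 to 3531008, had log2 values of 10.03, 9.91 and 9.90 in the floxed control, 10.07, 10.15 and 10.15 in the Cre control, and 10.09, 10.003 and 9.94 in the cKO. The Cre control was highest and did not overlap with the floxed control, whereas the cKO overlapped with both. The cKO differed from the floxed control by 0.06 (95% interval -0.06 to 0.18; adjusted p = 0.401 by limma) and from the Cre control by -0.12 (95% interval -0.24 to 0.01; adjusted p = 0.186 by limma). Cdk4 minus Cdk6 was 3.68 ± 0.048, 3.60 ± 0.15 and 3.90 ± 0.024 (SD, n = 3) in floxed control, Cre control and cKO. The cKO values lay above all control values, with an exact permutation p of 0.0286 and an adjusted p of 0.0857.

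The inhibitors did not move as a group. Cdkn2c, on chromosome 4 from 109660876 to 109667189, had log2 values of 8.60, 8.56 and 8.44 in the floxed control, 8.93, 8.68 and 8.63 in the Cre control, and 8.90, 8.79 and 8.83 in the cKO. The floxed control lay below all other libraries, and the highest value of all was Cre control replicate 1. Cdkn2c rose in the cKO against the floxed control by 0.31 ± 0.080 (SE; adjusted p = 0.0136 by limma). This call was lost when floxed control replicate 3 (adjusted p = 0.0571) or cKO replicate 1 (0.0541) was left out, and with the mesenchyme covariate described above (0.0962). Against the Cre control the difference was 0.09 (95% interval -0.08 to 0.27; adjusted p = 0.462 by limma).

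Cdkn1b, on chromosome 6 from 134920401 to 134925513, had log2 values of 11.54, 11.48 and 11.57 in the floxed control, 11.48, 11.47 and 11.53 in the Cre control, and 11.47, 11.45 and 11.43 in the cKO. All cKO values lay below those of the floxed control, by 0.08 in the mean, and this difference did not pass (95% interval -0.16 to 0.01; adjusted p = 0.128 by limma). Cdkn1c, on chromosome 7 from 143458339 to 143461050, had log2 values of 13.98, 14.04 and 13.83 in the floxed control, 14.07, 14.03 and 14.11 in the Cre control, and 13.96, 13.94 and 13.97 in the cKO. The Cre control lay above the cKO in every library, with a difference of -0.11 (95% interval -0.24 to 0.01; adjusted p = 0.196 by limma). The range of the floxed control held all cKO libraries and overlapped with the Cre control. From floxed control to Cre control the difference was 0.12, which did not pass (unadjusted p = 0.0535, adjusted p = 0.292 by limma). Cdkn1b minus Cdkn1c gave an exact permutation p of 0.121 and an adjusted p of 0.243.

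Neither Myc gene passed in any comparison. Mycn, on chromosome 12 from 12936093 to 12941914, had log2 values of 10.57, 10.42 and 10.59 in the floxed control, 10.56, 10.49 and 10.47 in the Cre control, and 10.63, 10.58 and 10.52 in the cKO. Myc, on chromosome 15 from 61985391 to 61990374, had log2 values of 8.80, 8.89 and 8.83 in the floxed control, 8.61, 8.82 and 8.85 in the Cre control, and 8.75, 8.90 and 8.82 in the cKO. The genotypes overlapped for both genes. For the cKO against the Cre control, the difference was 0.07 for Mycn (95% interval -0.05 to 0.19; adjusted p = 0.434 by limma) and 0.06 for Myc (95% interval -0.09 to 0.22; adjusted p = 0.579 by limma). Against the floxed control the differences were 0.05 for Mycn and -0.02 for Myc, with upper limits of the 95% interval at 0.17 and 0.14. With the mesenchyme covariate they were 0.18 for Mycn and -0.15 for Myc, and neither passed (adjusted p = 0.0985 and 0.347 by limma). Mycn minus Myc gave an exact permutation p of 0.85.

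**Figure D4:**
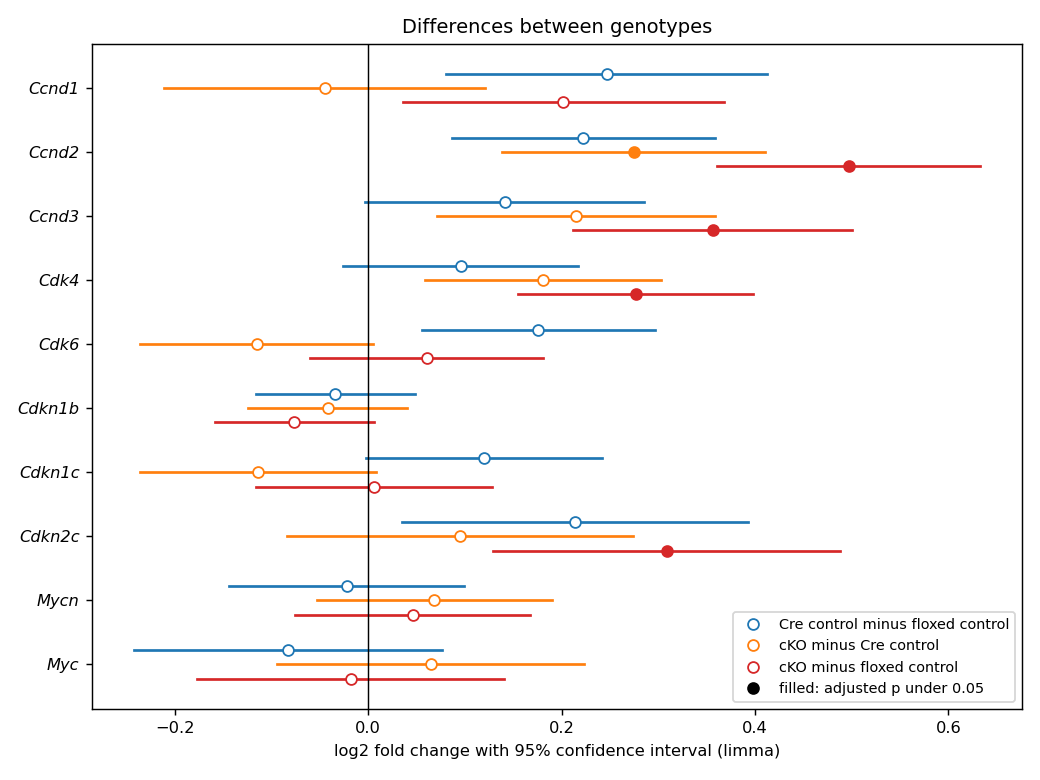
Log2 fold change (horizontal axis) of the 10 genes in 3 comparisons, with the 95% confidence interval from limma as a line; filled points have an adjusted p under 0.05. From Cre control to cKO, Ccnd2 alone is filled. The intervals of Ccnd2, Ccnd3 and Cdk4 lie above 0 there, and those of the other genes include 0.

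Counted together, 4 of the 10 genes passed between cKO and floxed control, all higher (Ccnd2, Ccnd3, Cdk4 and Cdkn2c), with a median log2 fold change of 0.13 over the 10. Of all 14029 genes, 38.3% passed this comparison, 19.5% as higher and 18.8% as lower, with a median of 0.01, so a share of 4 in 10 is near the background. Between cKO and Cre control 1 of the 10 passed, where 9.72% of all genes passed, 4.86% as higher and 4.85% as lower. The median of the 10 was 0.07 there, and that of all genes 0.01. None of the 10 was a DEG, which takes a fold change past 1.5 beside the adjusted p, limits that 1.34% of all genes exceeded as higher in the cKO than in the floxed control and 0.335% as higher than in the Cre control. Between the controls 0 of the 10 passed in limma, against 0.057% of all genes. At an unadjusted p under 0.05, 4 of them (Ccnd1, Ccnd2, Cdkn2c and Cdk6) differed between the controls, all higher in the Cre control, as did 17.5% of all genes in either direction. A difference among the 3 genotypes passed for Ccnd2, Ccnd3, Cdk4 and Cdkn2c and for 29.3% of all genes (limma F test).

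In terms of overlap, 5 of the 10 genes were higher in every cKO library than in every floxed library (Ccnd1, Ccnd2, Ccnd3, Cdk4 and Cdkn2c), where 29.9% of all genes were. Against the Cre control there were 3 such genes (Ccnd2, Ccnd3 and Cdk4), with 17.8% of all genes. From floxed control to Cre control there were 4 (Ccnd1, Ccnd2, Cdk6 and Cdkn2c), with 10.7% of all genes.

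The step from floxed control to Cre control and the step from Cre control to cKO were compared directly by the difference of the 2 steps. For Ccnd2 the steps were 0.22 and 0.27, with a difference of 0.05 (95% interval -0.18 to 0.29). For Ccnd1 they were 0.25 and -0.05, with a difference of -0.29 (95% interval -0.58 to -0.00451; unadjusted p = 0.0471, adjusted p = 0.769 by limma). This difference for Ccnd1 became -0.16 when replicate 1 of the Cre control was left out, and -0.45 when replicate 2 was. For Cdk6 they were 0.18 and -0.12, with a difference of -0.29 (unadjusted p = 0.0110, adjusted p = 0.614 by limma), and for Cdkn1c 0.12 and -0.11, with a difference of -0.23 (unadjusted p = 0.0333, adjusted p = 0.745 by limma). The other 7 genes had an unadjusted p over 0.05, and 6.44% of all genes had one under it. By adjusted p, 0 of the 10 passed, against 0.057% of all genes, so no D cyclin was shown to follow 1 step rather than the other. Both steps contain the same Cre control libraries, and a high value in these raises the first step and lowers the second.

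Cre control replicate 1 had the highest Ccnd1, Ccnd2, Cdk4, Cdkn2c and Mycn and the lowest Ccnd3, Cdk6 and Myc of its group. It also had the lowest summed share of 12 neuron markers among the controls, 0.520%, where the other Cre controls had 0.620 and 0.631%, the floxed controls 0.665 to 0.713% and the cKO 0.451 to 0.511%. All 12 neuron markers fell in the cKO against the floxed control, and 4 fell against the Cre control. Of 11 neural progenitor markers, 5 rose and 2 fell against the floxed control, with summed shares of 0.337 to 0.352% in the floxed control, 0.339 to 0.367% in the Cre control and 0.372 to 0.392% in the cKO. Those that fell were Pax3 (-0.37) and Pax7 (-0.48). The median difference of the 11 was 0.04. Their mean log2 value overlapped between floxed control (12.07 to 12.20) and cKO (12.17 to 12.21), unlike the summed share. The part of the neuron and progenitor content in the values of the 10 genes was not tested.

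Genes that act beside or after these 10 were counted in lists, to be read against the shares of all genes given above. The lists were chosen with earlier results of these data known, so their counts are descriptive and not a test of the lists. Cdk2, the kinase that follows Cdk4 and Cdk6, its cyclins Ccne1, Ccne2 and Ccna2, and its activator Cdc25a all rose in the cKO against the floxed control (5 of 5), and 2 of them passed against the Cre control and 0 between the controls. Cdk2 rose by 0.42 against floxed controls (adjusted p = 0.000373 by limma) and by 0.18 against Cre controls (0.0396). Cdc25a was higher by 0.31 (adjusted p = 0.000543) and 0.17 (0.0288). Ccna2 was higher by 0.50 than in the floxed control (adjusted p = 0.00104), and Ccne2 by 0.48 (0.00163), while their differences to the Cre control did not pass (0.24 and 0.22).

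Of 13 genes of the Rb and E2F family, 8 rose and 1 fell against the floxed control, and 1 rose against the Cre control. E2f4, a repressor E2F, rose by 0.26 against floxed controls (adjusted p = 0.00151 by limma), and Tfdp1, a dimerization partner of E2Fs, by 0.25 (0.00421). All 12 E2F targets, genes of DNA replication and nucleotide supply, rose against the floxed control with a median of 0.45, and 9 of 12 rose against the Cre control with a median of 0.26. The largest changes to the floxed control among the targets named by the rule were those of Rrm2, a subunit of ribonucleotide reductase (0.64, adjusted p = 0.000721 by limma), and Mcm6, a subunit of the replicative helicase (0.41, adjusted p = 0.000884). Against the Cre control they were higher by 0.43 (adjusted p = 0.0174) and 0.26 (0.0248). None of the E2F targets passed between the controls, with differences from 0.09 to 0.30.

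Among 8 genes for the turnover of G1 proteins, 2 rose and 2 fell against the floxed control. Those that rose were Skp2, which marks the Cdkn1b protein for degradation, and its cofactor Cks1b. Skp2 rose by 0.47 against floxed controls (adjusted p = 0.000305 by limma) and by 0.28 against Cre controls (0.0125), and Cks1b by 0.54 (0.000587) and 0.26 (0.0382). Those that fell against the floxed control were Gsk3b, a kinase that marks D cyclins and Myc for degradation (-0.26, adjusted p = 0.0158), and Fbxo31 (-0.20, adjusted p = 0.0163), and neither passed against the Cre control. The other Cdk inhibitors tested, Cdkn1a and Cdkn2d, did not pass in either comparison, with differences of 0.15 and -0.02 to the floxed control, and Cdkn2a and Cdkn2b were below the filter on low values.

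Of 9 partners in the Myc network, 1 rose and 3 fell against the floxed control. Mxd3, a Max-binding repressor found in proliferating cells, was higher by 0.36 (adjusted p = 0.0115 by limma). Its relatives Mxd1 and Mxd4 and the repressor Mnt were lower by 0.22, 0.13 and 0.21 in the means (adjusted p = 0.0120, 0.0324 and 0.0130 by limma), and Mxd4 alone passed against the Cre control (-0.15, adjusted p = 0.0476). Although Mycn and Myc did not pass, 10 of 13 Myc targets rose against the floxed control with a median of 0.24, and 5 of 13 rose against the Cre control with a median of 0.18. Npm1, a nucleolar chaperone, was higher by 0.32 (adjusted p = 0.00251) and 0.23 (0.0375), and Cdca7 by 0.51 (0.000261) and 0.30 (0.0121).

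**Figure D5:**
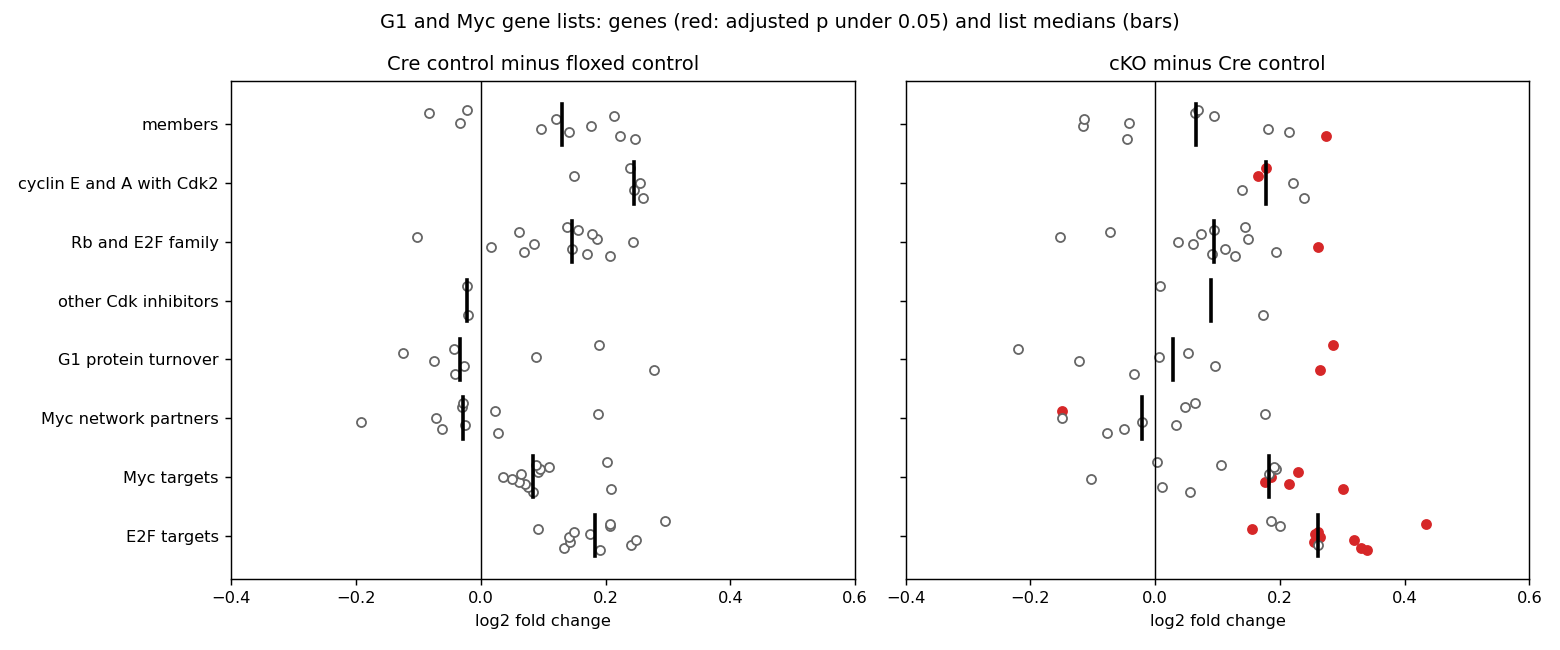
Log2 fold change (horizontal axes) of the genes (points) in 8 lists, from floxed control to Cre control on the left and from Cre control to cKO on the right; red points have an adjusted p under 0.05 and bars mark list medians. No point is red between the controls, and in the right panel 9 of 12 E2F targets and 5 of 13 Myc targets are red beside 1 of the 10 genes described here.

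All 4 direct targets of Shh signaling rose against both controls, with medians of 1.01 and 0.94, and none passed between the controls, where their median was 0.04. Gli1 rose by 1.08 against floxed controls (adjusted p = 3.17e-05 by limma) and by 1.05 against Cre controls (7.49e-05). The difference of Ccnd2 to the Cre control, 0.27, is small beside these. Wnt1 exceeded its floxed control level by 1.75 in Cre control fetuses (adjusted p = 3.47e-06 by limma) and lower by 0.28 in the cKO than in the Cre control in the means (0.0373). Of 6 genes in the Wnt list, 4 rose in the cKO against the floxed control, among them Tcf7 (0.47, adjusted p = 0.00113) and Nkd1, a feedback inhibitor (0.24, adjusted p = 0.00601). Axin2 and Lef1 did not pass there, with differences of -0.04 and -0.09 (adjusted p = 0.442 and 0.453 by limma). Against the Cre control 0 rose and 2 fell, Wnt1 and Axin2 (-0.14, adjusted p = 0.0477 by limma). Nkd1 had a first step of 0.24 (adjusted p = 0.144) and a second of -0.00235 (adjusted p = 0.983).

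The genes whose values ran most closely with a D cyclin differed between the cyclins, with Pearson's r over 9 libraries that fall into 3 genotypes and share normalization and tissue makeup. For Ccnd2 they were Ildr2 (r = 0.988), Jpt2 (0.987) and Anln, a cytokinesis protein (0.985). For Ccnd1 they were Ccdc77 (r = 0.978), Gm44504 (0.974) and the kinase Nuak2 (0.962). For Ccnd3 they were Crtap, which takes part in collagen modification (r = 0.994), Txndc5 (0.994) and Rcn3 (0.993). The likeness was lower for Mycn, with Skida1 first (r = 0.931), and for Cdkn1c, with Cep97 first (r = 0.896).

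Several of the 10 genes share positions with genes on the opposite strand, and whether the libraries kept the strand is not stated, so reads in shared stretches cannot be assigned with certainty. Cdk4 overlaps Tspan31, which was higher in the cKO than in the floxed control by 0.17 (adjusted p = 0.0127 by limma). Ccnd3 overlaps Bysl, with a difference of 0.02 (adjusted p = 0.799), and Ccnd1 overlaps LTO1, with -0.09 (adjusted p = 0.145). Ccnd2, Cdk6 and Cdkn1c overlap predicted or noncoding genes, and Cdkn1b, Cdkn2c, Mycn and Myc overlap none.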

How the data were processed

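Poly-A selected RNA of 9 fetal midbrains was sequenced by the authors, and 1 table of log2 values was deposited by the authors. The values had been normalized between libraries. The median SD within genotypes was 0.00362 for rows with a mean under 0 and 0.0919 for rows with a mean from 6 to 8, and did not grow above that. The submitters' processing notes name FastQC 0.10.1, kallisto 0.46.1, DESeq2 and the build mm10, and the transformation is not given in the sources used here. The table holds no read counts, so depth is unknown and its precision could not be computed.

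The 27360 rows were filtered for a gene symbol and for 1 cpm or more, taken from linear values, in 3 or more libraries (14029 genes). With limma 3.58.1 under R 4.3.3, a mean per genotype was fitted over the 9 libraries (eBayes with trend), two-sided, with Benjamini-Hochberg adjustment over all genes tested and a threshold of 0.05. The fit was tested on simulated data. Differences between 2 genes within libraries were tested by exact permutation of an F statistic over the 3 genotypes. Replicate numbers were not used as pairs. The members and gene lists were chosen with earlier results of these data known. Besides the 10 genes and Gpr161, the genes named are up to 4 per list with the smallest p between cKO and floxed control. The 3 closest by Pearson's r are named too. Overlapping genes, Ccne1, Axin2, Lef1, Pax3, Pax7 and the collagen examples were added. Alternatives covered the filter, the trend, the scaling, the libraries in the fit, the replicate block and each library left out; the mesenchyme covariate was added after seeing the data. Positions come from GENCODE for GRCm38.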

Additional observations from a re-analysis of the deposited data

How the results depend on the processing

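The count of the 10 genes that passed between cKO and Cre control, 1 in the fit reported, was 0 after quantile normalization or with only the 2 groups compared, and 0 to 2 when each library was left out in turn. It was 0 with replicate 2 or 3 of the Cre control or replicate 1 or 2 of the cKO left out, and 2 with replicate 2 of the floxed control or replicate 1 of the Cre control left out. Between cKO and floxed control, 4 genes became 2 (Ccnd2 and Cdk4) with the added mesenchyme covariate, and 3 to 5 when each library was left out. For any difference among the genotypes, 4 became 1 (Ccnd2) with that covariate and 2 to 6 when each library was left out, with 2 without cKO replicate 1. Between the controls and for the difference of steps, 0 genes passed in every alternative run. Of 630 alternatives for single genes, 591 left the direction and the side of the threshold as they were, 9 brought a gene past the threshold, 10 took it below and 20 turned the sign of a difference, where neither value passed (smallest adjusted p = 0.381 by limma). Among the latter, Cdkn1c between cKO and floxed control was -0.00955 with libraries centred on their medians, -0.051 after quantile normalization and -0.10 with the mesenchyme covariate, Mycn between the controls was 0.054 with that covariate, and the difference of steps of Ccnd2 was -0.033 after quantile normalization, which also took Cdkn1b minus Cdkn1c to 0.00738. The others came from leaving out 1 library. Between cKO and floxed control these differences then ranged from -0.054 to 0.053 for Cdkn1c, from -0.00842 to 0.079 for Mycn, from -0.056 to 0.017 for Myc and from -0.014 to 0.11 for Mycn minus Myc. Between cKO and Cre control they ranged from -0.13 to 0.018 for Ccnd1 and from -0.012 to 0.11 for Myc, and between the controls from -0.076 to 0.011 for Mycn. The difference of steps ranged from -0.059 to 0.15 for Ccnd2, from -0.00370 to 0.17 for Ccnd3, from -0.036 to 0.029 for Cdkn1b, from -0.24 to 0.061 for Cdkn2c and from -0.00627 to 0.24 for Myc. When each library was left out, the difference between cKO and floxed control ranged from -0.34 to -0.24 for Ccnd1 minus Ccnd2. It ranged from 0.19 to 0.23 for Cdk4 minus Cdk6 and from -0.15 to -0.00352 for Cdkn1b minus Cdkn1c. The exact permutation test of any difference among the 3 genotypes gave adjusted p of 0.0429 to 0.171, 0.0214 to 0.268 and 0.0214 to 0.507 in turn. These tests passed only without floxed control replicate 1, Cre control replicate 1 and floxed control replicate 2 in turn. Quantile normalization took Ccnd1 minus Ccnd2 from -0.30 to -0.19. The cause of these changes was not tested.

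With the replicate number as a block (replicate block), 3 genes passed between cKO and Cre control (Ccnd2, Ccnd3 and Cdk4), and Ccnd1 passed between cKO and floxed control (0.20, adjusted p = 0.0137 by limma). With genotype means subtracted, same-number pairs had correlations from -0.027 to 0.26 (median 0.102), 5 of 9 of them over 0.1. Pairs with different numbers ranged from -0.282 to 0.161 (median -0.0526), 3 of 18 of them over 0.1. Of 18 best matches in another group, 11 had the own number, and 4 of 9 libraries had this in both other groups. Same-number pairs were thus higher in the median, but the ranges overlapped, so the numbers do not establish a pairing. What the numbers stand for was not tested. Without read counts, what depth limits is unknown, and the 3 fetuses per genotype limit the precision.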

Other observations

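Markers of other cells moved between the genotypes as well. Of 7 erythroid markers, 5 rose from floxed control to cKO and 2 from Cre control to cKO, with summed shares of 0.836 to 1.61% of the linear values in the cKO, 0.649 to 0.767% in the Cre control and 0.544 to 0.926% in the floxed control. Of 6 endothelial markers, 3 rose from floxed control to cKO and 0 from Cre control to cKO (limma, adjusted p). None of 6 microglia and 4 pericyte markers passed in these comparisons. Of 3 neural crest glia markers tested, 1 rose against the floxed control, and of 3 choroid plexus markers 1 fell. No choroid plexus marker passed between cKO and Cre control. Their summed shares were 0.00926 to 0.0507% in the floxed control, 0.00267 to 0.0209% in the Cre control and 0.00390 to 0.00867% in the cKO. The part of these markers in the values of the 10 genes was not tested.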
